A study of Mus musculus with 8 samples.

Results

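This account concerns 10 transcription factors of fat cell formation, chosen by name: Pparg, Cebpa, Cebpb, Cebpd, Ebf1, Ebf2, Zfp423, Klf15, Klf9 and Srebf1. They were placed, by the mm9 position of gene body and promoter, against lamina associated domains (LADs), the stretches of the genome that LaminB1-DamID marks as lying near the nuclear lamina. All 10 were found in the annotation, beside 22367 protein-coding genes used as background. Cebpd carries the annotation's type pseudogene, though it is a functional gene without introns, so it was matched by symbol and is not part of that background.

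The LADs came from 3T3-L1, an established mouse fibroblast line that forms adipocytes in culture, in 4 conditions with 1 Dam and 1 LaminB1-Dam library each. These were untreated preadipocytes at day 0 (undifferentiated), and adipocytes at day 9 carrying control non-target shRNA, Tmem120a shRNA, or shRNA against both Tmem120a and Tmem120b (Tmem120a/b shRNA). Tmem120a encodes a nuclear envelope transmembrane protein and Tmem120b is its paralog. Adipocytes were induced with insulin, dexamethasone, IBMX and rosiglitazone, and the knockdowns were in stable lines, whereas the preadipocytes carried no shRNA, so differentiation and the control shRNA cannot be told apart in that comparison. Each list of LADs comes from 1 pair of libraries, so no value below has a replicate error and no difference was tested. The lists hold positions and neither ratios nor expression, so depth, the strength of a LAD and the identity of the cells by marker genes could not be read from them.

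Fat cell formation runs through a cascade of these factors. C/EBPbeta and C/EBPdelta (Cebpb, Cebpd) are induced within hours by dexamethasone and IBMX, and then switch on PPARgamma (Pparg) and C/EBPalpha (Cebpa), which hold each other on and drive the genes of the mature adipocyte. EBF1, EBF2 and ZFP423 act around commitment and fat cell identity, KLF15 and KLF9 are Krueppel-like factors that promote the later steps, and SREBP1 (Srebf1) drives lipid synthesis. Genes in LADs are in general weakly expressed, and loci that a cell type needs can lie between LADs in its nuclei.

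No member met a LAD in any condition. The share of the gene body in a LAD was 0% for each of the 10 genes in preadipocytes, adipocytes, the Tmem120a knockdown and the double knockdown, and the share of the promoter (2 kb before to 0.5 kb after the gene start) was likewise 0% throughout. The background is that 63.7% of all protein-coding genes lay outside LADs in all 4 lists. By list, 26.2% of genes met a LAD with their body in preadipocytes, 23.3% in adipocytes, 27.5% after Tmem120a knockdown and 29.5% after the double knockdown. With their promoter, 23.6%, 21.4%, 22.9% and 24.3% did. The LAD state of the body differed between preadipocytes and adipocytes for 6.69% of all genes, between adipocytes and the Tmem120a knockdown for 8.08%, and between adipocytes and the double knockdown for 10.5%, and for none of the 10 members. What varied among the members was the distance to the nearest LAD.

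**Figure D1:**
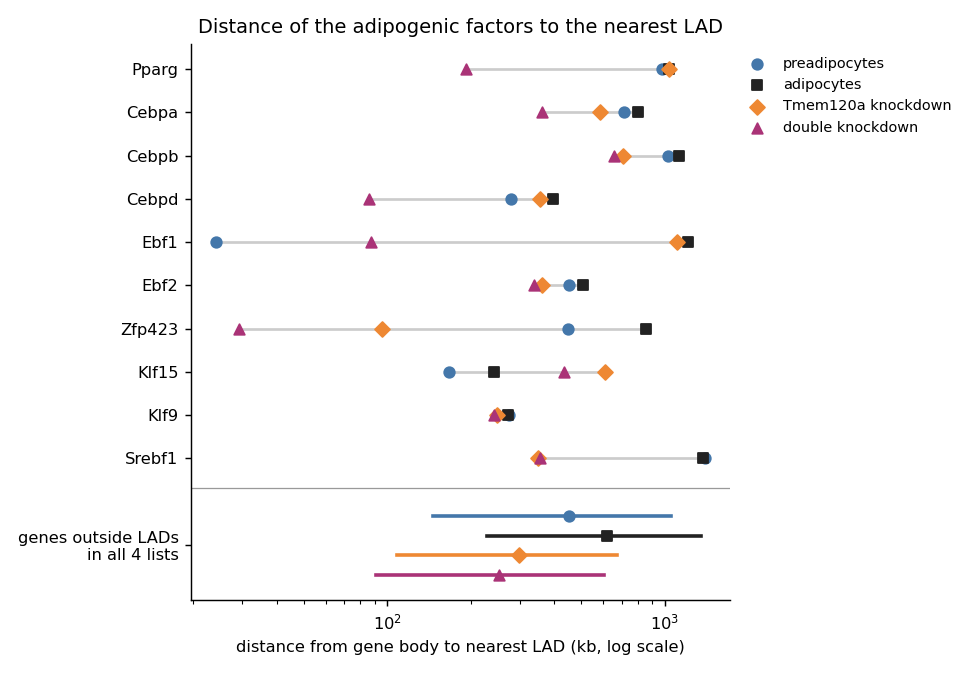
Distance in kb (log axis) from each gene body to the nearest LAD in the 4 lists, 1 point per list, with the grey line spanning the lowest to the highest; below the rule, the median (symbol) and quartiles (line) of the 14251 protein-coding genes outside LADs in all 4 lists. Ebf1 runs from 24.1 kb in preadipocytes to 1208 kb in adipocytes, and 9 of the 10 factors lie nearer a LAD after the double knockdown than in adipocytes, with Klf15 as the exception.

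The median distance of the 10 members came to 449 kb in preadipocytes, 826 kb in adipocytes, 473 kb after Tmem120a knockdown and 290.0 kb after the double knockdown. For the genes outside LADs in all 4 lists the medians were 453 kb, 617 kb, 298 kb and 252 kb, so the members followed the same order of conditions except that their Tmem120a knockdown median stood above the preadipocyte one. The range over members was 24.1 to 1396 kb in preadipocytes, 243 to 1367 kb in adipocytes, 95.6 to 1105 kb after Tmem120a knockdown and 29.2 to 658 kb after the double knockdown. Within 100 kb of a LAD lay 1 member in preadipocytes (Ebf1), 0 in adipocytes, 1 after Tmem120a knockdown (Zfp423) and 3 after the double knockdown (Zfp423, Cebpd and Ebf1). The lower quartile of the distance for genes outside LADs in all 4 lists was 147 kb, 228 kb, 109 kb and 90.7 kb, so 3 of 10 is near the background of that list.

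Most of the LADs that set these distances were short. Of the 40 nearest LADs (10 genes in 4 lists), 13 were under 30 kb, 25 were under 50 kb and 11 were at least 100 kb, and the shortest LADs in the lists are just over 15 kb. In the double knockdown 7 of 10 nearest LADs were under 50 kb and 7 met no LAD of the other 3 lists. For the genes outside LADs in all 4 lists, the nearest LAD of the double knockdown was under 50 kb for 59.9% and met no other list for 43.0%. In the Tmem120a knockdown the members' counts were 8 and 4 of 10, against 56.8% and 34.7%. In preadipocytes they were 5 and 3 of 10 against 38.3% and 15.7%, and in adipocytes 5 and 1 of 10 against 36.9% and 4.74%.

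**Figure D2:**
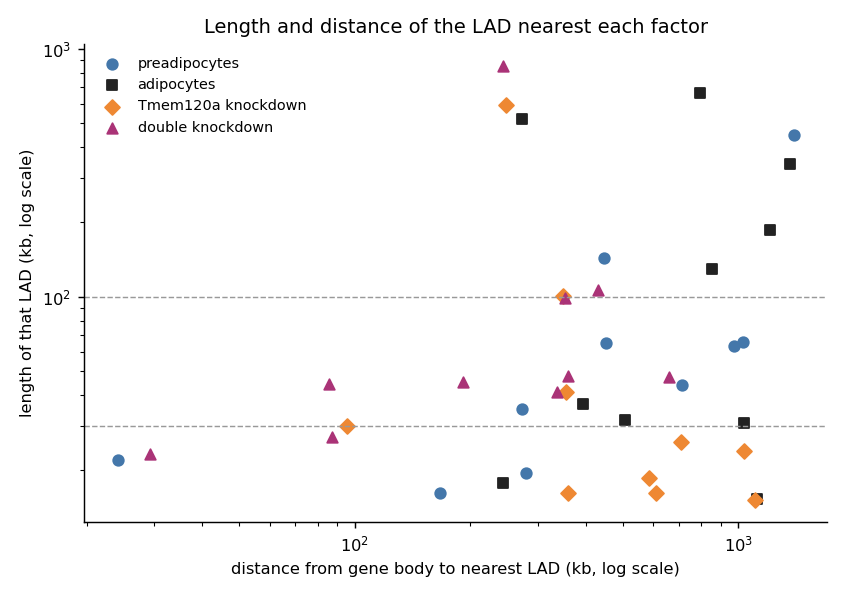
Length of the LAD nearest each factor against its distance (both in kb, log axes), 10 points for each of the 4 lists; dashed lines mark 30 and 100 kb. The LADs within 100 kb of a factor are between 21.8 and 44.5 kb long, and 11 of the 40 points lie at or above 100 kb.

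Pparg, the nuclear receptor at the head of the adipocyte programme, spans chr6:115311239-115440419 (129 kb, plus strand). The nearest LAD lay 974 kb away in preadipocytes, 1034 kb in adipocytes, 1038 kb after Tmem120a knockdown and 191 kb after the double knockdown. Hence the first 3 values were close to each other and the double knockdown was 5.40 times nearer than adipocytes. The LAD of the double knockdown lies upstream, is 45.0 kb long, ends in an intron of Syn2 (synapsin II) and covers 23.6% of that gene, which met no LAD in the other 3 lists. The stretch between LADs that holds Pparg was 7.005 Mb long in adipocytes, against 2.39 Mb in preadipocytes, 2.31 Mb after Tmem120a knockdown and 1.29 Mb after the double knockdown. When only LADs of at least 100 kb are kept, Pparg is 2807 to 3171 kb from a LAD in all 4 lists and the double knockdown no longer stands apart.

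The gene has 2 annotated starts of coding transcripts, of which the downstream one (at 115372084) belongs to the fat-restricted isoform PPARgamma2. That start lay 1042 kb from a LAD in preadipocytes, 1095 kb in adipocytes, 1106 kb after Tmem120a knockdown and 252 kb after the double knockdown. The upstream start (at 115311239) lay at 1103, 1034, 1142 and 191 kb in the same order. Both starts were thus nearest a LAD after the double knockdown, as the body was, but the upstream start lay nearer a LAD in adipocytes than in preadipocytes, opposite to the body. Their proximal promoters are shown because Pparg is the factor on which the others converge. They are the 250 bases before each start from RefSeq (build GRCm38.p6), found by exact match in the mm9 sequence (the upstream RefSeq start lies 0.077 kb before the annotated one), written 5′ to 3′ on the plus strand. Capitals mark matches, on either strand, to GATC, TTGCGCAA (C/EBP), AGGTCA (nuclear receptors), CCCNNGGG (EBF), TCACNCCAC (SREBP) and CACCC (KLF), searched over these bases and the 50 that follow.

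Pparg upstream start, chr6:115310912-115311161: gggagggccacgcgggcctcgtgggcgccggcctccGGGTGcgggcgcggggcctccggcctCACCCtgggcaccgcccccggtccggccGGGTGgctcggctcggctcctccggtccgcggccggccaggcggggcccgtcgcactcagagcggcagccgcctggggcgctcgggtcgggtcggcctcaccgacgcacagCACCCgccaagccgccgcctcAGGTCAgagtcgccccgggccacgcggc

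Pparg downstream start, chr6:115371834-115372083: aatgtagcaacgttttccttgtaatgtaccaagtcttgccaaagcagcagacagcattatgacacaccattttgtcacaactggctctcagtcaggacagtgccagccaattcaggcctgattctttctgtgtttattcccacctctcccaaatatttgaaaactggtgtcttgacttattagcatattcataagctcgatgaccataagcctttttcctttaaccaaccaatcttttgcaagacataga

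The upstream promoter holds 4 matches to CACCC and 1 to AGGTCA and has a GC content of 80.3% over the 300 bases. The downstream promoter holds no match to any of the 6 motifs and has a GC content of 40.3%. Neither has a GATC within these bases, so the Dam fragment that covers each start is set by GATC sites farther off. The fragment at the annotated start of Pparg is 792 bp long. RefSeq has another Pparg start, 1.13 kb after the annotated upstream one, whose promoter is not shown and holds 1 match to AGGTCA, 1 to GATC and 1 to CACCC.

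Cebpa, which acts with Pparg in terminal differentiation, is a compact gene at chr7:35904312-35906945 (2.63 kb, plus strand). Its distances were 713 kb in preadipocytes, 797 kb in adipocytes, 585 kb after Tmem120a knockdown and 361 kb after the double knockdown. The double knockdown was 2.21 times nearer than adipocytes, through a 47.9 kb LAD that meets Tdrd12 and is in no other list. With only LADs of at least 100 kb the distance was 807 kb after the double knockdown and 797 kb in adipocytes. The LAD on its left side was 2878 kb long in preadipocytes and 2725 kb in adipocytes, with a gap of 1033 and 1025 kb, and that on its right side 43.9 and 662 kb. After Tmem120a knockdown the left one was 18.6 kb and the right one 311 kb. In the double knockdown the LADs flanking it were 29.6 kb and 47.9 kb long at 409 and 361 kb. Its promoter, on the plus strand, is shown because it holds 2 GATC sites, in capitals with a CACCC match.

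Cebpa, chr7:35904062-35904311: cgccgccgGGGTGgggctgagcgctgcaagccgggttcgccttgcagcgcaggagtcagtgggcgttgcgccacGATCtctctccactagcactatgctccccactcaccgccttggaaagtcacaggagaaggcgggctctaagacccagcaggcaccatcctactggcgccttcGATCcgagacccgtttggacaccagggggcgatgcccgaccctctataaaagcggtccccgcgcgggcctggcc

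The early factors Cebpb and Cebpd differed in how much LAD surrounds them. Cebpb (chr2:167514415-167515918, 1.504 kb) lay 1027 kb from a LAD in preadipocytes, 1123 kb in adipocytes, 708 kb after Tmem120a knockdown and 658 kb after the double knockdown. No LAD came within 1 Mb of it in the first 2 lists, and a single LAD of 26.0 kb and 47.3 kb did so in the knockdowns. Without LADs under 30 kb the distance after Tmem120a knockdown was 1299 kb, farther than in adipocytes, and with LADs of at least 100 kb the double knockdown lay at 1286 kb and adipocytes at 1291 kb. The stretch that holds it was 4.03 to 5.52 Mb long, the lowest value again after the double knockdown. Cebpd (chr16:15887379-15888559, 1.18 kb) lay at 280 kb, 395 kb, 355 kb and 85.8 kb in the same order. It was thus 4.601 times nearer after the double knockdown than in adipocytes. With only LADs of at least 100 kb these values are 484 and 493 kb. The LAD there is 44.5 kb long, ends in an intron of Prkdc (the catalytic subunit of DNA-dependent protein kinase) and covers 21.8% of that gene, which is outside the LADs of the other 3 lists. LADs made up between 20.2% and 27.0% of the 1 Mb to each side of the Cebpd start, against 0% to 2.37% around Cebpb.

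Ebf1, an early B cell factor that also acts in adipogenesis, showed the widest spread among the 10 genes. It spans chr11:44430819-44821593 (391 kb, plus strand). It lay 24.1 kb from a LAD in preadipocytes, 1208 kb in adipocytes, 1105 kb after Tmem120a knockdown and 87.4 kb after the double knockdown. Adipocytes and the Tmem120a knockdown thus stood together far from a LAD, and preadipocytes and the double knockdown near one. The ratio of adipocytes to preadipocytes was 50.1, and that of adipocytes to the double knockdown 13.8. These near LADs lie beyond the 3′ end of a long gene, and the first annotated start was 415 kb, 1208 kb, 1105 kb and 478 kb from a LAD in the 4 lists. The preadipocyte LAD is 21.8 kb long and is the first of 4 released regions (LAD in preadipocytes and not in adipocytes, as the study listed them) within 1 Mb downstream. These are 21.8, 109.6, 177 and 39.1 kb long, at 24.1, 315, 554 and 952 kb from the gene. In the Tmem120a knockdown 0% of each was in a LAD. In the double knockdown 37.0% and 56.4% of the middle ones were, and 0% of the first and the last, so the LAD nearest Ebf1 there is a different piece, 27.1 kb long and in no other list. Counting only LADs of at least 100 kb, the distances become 315 kb in preadipocytes and 1208, 1257 and 1217 kb in the other lists. The preadipocyte value then still stands apart, and the double knockdown value does not.

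Ebf2 (chr14:67852129-68048604, 196 kb), which marks brown and beige fat precursors, had a narrower range: 453 kb in preadipocytes, 508 kb in adipocytes, 359.8 kb after Tmem120a knockdown and 337 kb after the double knockdown. A released region of 55.3 kb, which meets Adra1a (an adrenergic receptor gene), lies 453 kb upstream. The knockdown LADs nearest the gene were downstream, in Dock5, at 16.1 and 41.4 kb of length. The start of Ebf2, at the other end, lay 453, 508, 556 and 533 kb from a LAD in the 4 lists, so it was farther in both knockdowns than in adipocytes while the body was nearer. Without LADs under 30 kb the body too was farther after Tmem120a knockdown (547 kb), and with LADs of at least 100 kb it lay at 791 kb there, 719 kb after the double knockdown and 723 kb in adipocytes. LADs made up 15.8% of the 1 Mb to each side of the start in preadipocytes, 5.62% in adipocytes, 10.2% after Tmem120a knockdown and 15.5% after the double knockdown.

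Zfp423, a zinc finger regulator of preadipocyte commitment, spans chr8:90185709-90483494 on the minus strand (298 kb). Its distances were 446 kb in preadipocytes, 854 kb in adipocytes, 95.6 kb after Tmem120a knockdown and 29.2 kb after the double knockdown. Measured from the gene body, adipocytes were thus 8.93 times and 29.2 times farther from a LAD than the knockdowns. In preadipocytes and adipocytes the nearest LAD was upstream and 142 and 129 kb long, whereas in the knockdowns it was downstream, 30.1 and 23.1 kb long and in no other list. The double knockdown also had a LAD of 22.5 kb at 109 kb upstream, so the gene sat in a stretch of 0.436 Mb, against 6.62 Mb in adipocytes. With only LADs of at least 100 kb, the values were 446, 854, 1217 and 871 kb, and neither knockdown was nearer than adipocytes. The near LADs of the knockdowns lie beyond the 3′ end of this long gene. Its 5 starts lay between 109 and 173 kb from a LAD after the double knockdown and between 854 and 1010 kb in adipocytes. After Tmem120a knockdown they lay between 238 and 393 kb from one.

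The edges of these LADs lie at GATC, the site that Dam methylates, as all 80 edges of the 40 nearest LADs do (within 4 bases). The edge facing the gene is printed for the 8 cases in which a distance was at least 3-fold shorter than in adipocytes (those of Srebf1 with that gene below), as the 60 bases of the mm9 plus strand around it, with the GATC in capitals.

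Ebf1 in preadipocytes, chr11:44845642-44845701, between protein-coding genes: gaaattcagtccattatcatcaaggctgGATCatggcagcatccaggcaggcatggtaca

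Ebf1 after the double knockdown, chr11:44908971-44909030, between protein-coding genes: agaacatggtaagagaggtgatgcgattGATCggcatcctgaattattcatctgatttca

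Zfp423 after Tmem120a knockdown, chr8:90090050-90090109, in an intron of 4933402J07Rik: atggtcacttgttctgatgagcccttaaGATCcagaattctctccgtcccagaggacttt

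Zfp423 after the double knockdown, chr8:90156435-90156494, between protein-coding genes: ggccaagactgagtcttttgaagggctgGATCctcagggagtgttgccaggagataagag

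Pparg after the double knockdown, chr6:115119783-115119842, in an intron of Syn2: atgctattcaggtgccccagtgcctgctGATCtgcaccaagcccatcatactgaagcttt

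Cebpd after the double knockdown, chr16:15801586-15801645, in an intron of Prkdc: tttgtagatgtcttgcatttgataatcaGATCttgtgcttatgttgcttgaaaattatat

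Klf15, a Krueppel-like factor that promotes adipocyte maturation and glucocorticoid responses, went the other way. Located at chr6:90412570-90425232 (12.7 kb, plus strand), it lay 167 kb from a LAD in preadipocytes, 243 kb in adipocytes, 609.6 kb after Tmem120a knockdown and 432 kb after the double knockdown. It was thus 2.51 times farther after Tmem120a knockdown and 1.78 times farther after the double knockdown than in adipocytes. The adipocyte value rests on a LAD of 17.7 kb that meets V1ra8, a vomeronasal receptor gene. Without LADs under 30 kb the adipocyte distance is 4767 kb, the Tmem120a knockdown distance 1838 kb and the double knockdown distance 432 kb, and the direction turns. The preadipocyte list held 5 LADs within 1 Mb of its start. Within them lie 2 released regions of 48.1 and 16.2 kb that no other list called, the first being the part of a longer preadipocyte LAD whose other part holds the adipocyte LAD of 17.7 kb. The first of these covers Vmn1r53, another vomeronasal receptor gene, whose body was 100% in a LAD before differentiation and 0% in the other lists.

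Klf9, a glucocorticoid-induced Krueppel-like factor, was the steadiest in distance. It spans chr19:23215716-23241401 (25.7 kb, plus strand) and lay at 274 kb, 273 kb, 248 kb and 243 kb. The LAD beside it runs through Trpm3, a cation channel gene that met a LAD in all 4 lists (80.3%, 63.6%, 69.3% and 89.2% of its body). While the distance held, the amount of LAD around the gene varied. LADs summed to 834 kb of the 1 Mb to each side of the start in preadipocytes, 583 kb in adipocytes, 723 kb after Tmem120a knockdown and 999 kb after the double knockdown. It had 5 released regions within 1 Mb, of 14.3 to 101 kb. In the double knockdown 80.2% to 100% of each lay in a LAD. In the Tmem120a knockdown the share was 0%, 100%, 22.3%, 9.29% and 75.2%, in the order of the chromosome.

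Srebf1, the regulator of fatty acid synthesis genes, was the member farthest from a LAD in preadipocytes and adipocytes. It spans chr11:60012591-60036083 on the minus strand (23.5 kb). It lay 1396 kb from a LAD in preadipocytes, 1367 kb in adipocytes, 349 kb after Tmem120a knockdown and 354 kb after the double knockdown. The knockdown values thus stood side by side and were 3.92 and 3.86 times nearer than adipocytes. With only LADs of at least 100 kb the Tmem120a knockdown value is the same, whereas the double knockdown value becomes 1320 kb, since its LAD is just shorter than that. The LADs that set them are nearly the same piece, 100.5 and 98.2 kb long, upstream and between protein-coding genes. Of the Tmem120a knockdown LAD, 95.0% lies in LADs of the double knockdown and 0% in those of preadipocytes or adipocytes. It was the only nearest LAD called in both knockdowns and not in the other lists that exceeded 50 kb. Its edges toward the gene are shown.

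Srebf1 after Tmem120a knockdown, chr11:60384879-60384938: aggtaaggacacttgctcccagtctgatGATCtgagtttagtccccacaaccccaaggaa

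Srebf1 after the double knockdown, chr11:60389910-60389969: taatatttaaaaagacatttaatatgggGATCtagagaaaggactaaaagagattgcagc

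**Figure D3:**
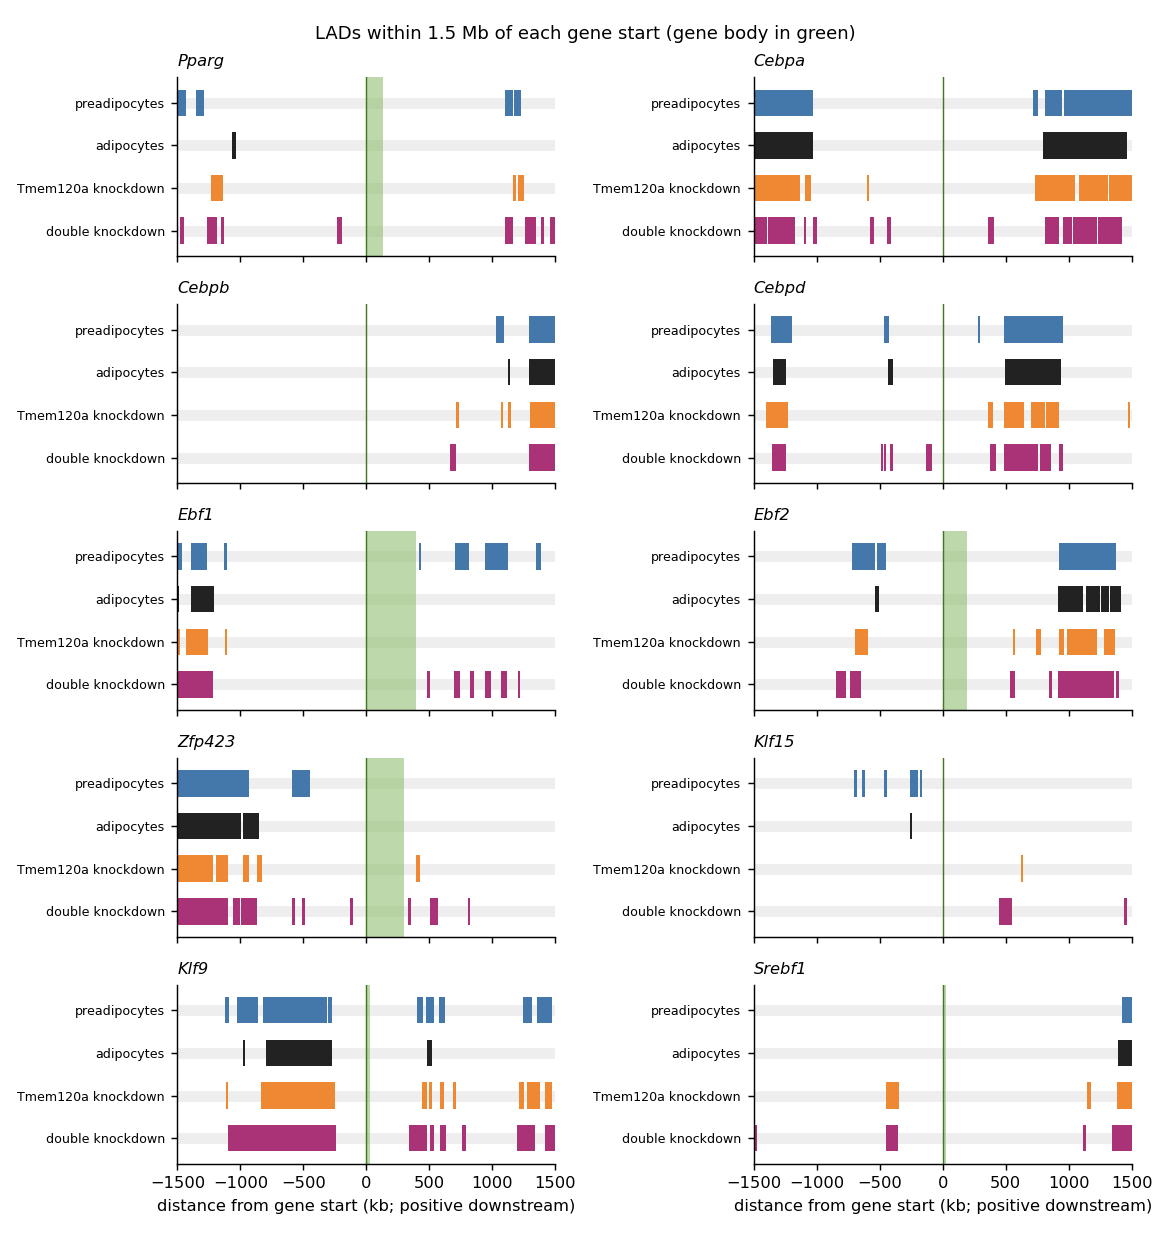
LADs (bars) within 1.5 Mb of the start of each factor in the 4 lists, with the distance from the start in kb on the x axis (positive downstream) and the gene body in green. No bar touches a gene body; Zfp423 and Ebf1 have short bars close to the body in 2 of the lists each, and Srebf1 has a bar on the upstream side in the knockdowns alone.

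The comparison of preadipocytes with adipocytes asked whether the factors lie farther along the chromosome from a called LAD once the cells have differentiated, which is not a distance to the lamina itself. In adipocytes 8 of the 10 members lay farther from a LAD and 2 (Klf9 and Srebf1, with differences of -0.353 and -28.7 kb) nearer, against 70.3% farther among the 16082 genes outside LADs in both lists. Only Ebf1 was farther by 2-fold or more, against 21.9% of those genes. Zfp423 followed at 1.92-fold. All 10 members sat in a longer stretch between LADs in adipocytes, against 75.8% of the 13903 genes outside LADs in all 4 lists that have a LAD on each side. For 10 genes, each of these 3 counts lies within 3 genes of what the shares over all genes give. LAD length within 1 Mb of the start was lower in adipocytes for 7 members and equal for 3, with 52.3% lower among genes outside LADs in all 4 lists. The equal values, of Pparg, Cebpb and Srebf1, were 0 kb in both.

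Of the regions the study listed as changing in differentiation, 18 released and 2 recruited ones (LAD in adipocytes and not in preadipocytes) lay within 1 Mb of a member. A released region was near 7 of the 10 members, against 59.1% of all genes, and a recruited one near 2 (Cebpa and Zfp423), against 39.8%. All genes had a mean of 1.66 released and 0.928 recruited regions within 1 Mb. Klf9 had 5 released regions, Ebf1 had 4, Cebpd, Ebf2, Zfp423 and Klf15 had 2 each, and Pparg had 1. That of Pparg, 63.4 kb long and 974 kb downstream, holds the olfactory receptor genes Olfr211 and Olfr212, and 99.7% of it was in a LAD after the double knockdown against 0% after Tmem120a knockdown.

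The knockdowns were compared with the adipocytes carrying control shRNA, which both comparisons share. In the Tmem120a knockdown 8 members lay nearer a LAD, against 75.6% of 15787 genes, and 2 of them (Zfp423 and Srebf1) by 2-fold or more, against 37% of those genes. The exceptions were Klf15 and Pparg, the latter by 3.84 kb. In the double knockdown 9 lay nearer, against 81.6% of 15289 genes, and 6 (Pparg, Cebpa, Cebpd, Ebf1, Zfp423 and Srebf1) by 2-fold or more, against 44.1%. The stretch between LADs was shorter for 9 members after Tmem120a knockdown (all but Cebpd) and for 10 after the double knockdown, against 85.3% and 87.9% of genes. For 10 genes, each of these counts lies within 2 genes of the background. They go with lists that hold more and shorter LADs: 5723 and 6971 in the knockdowns, with medians of 59.1 and 60.7 kb, against 2542 with a median of 103 kb in adipocytes and 3914 with a median of 83.2 kb in preadipocytes. The total LAD length was not higher in the knockdowns: 1164 and 1161 Mb, against 1198 Mb in adipocytes and 1193 Mb in preadipocytes. How far the number of LADs accounts for the distances was not tested. Counting only LADs of at least 100 kb, 5 members lay nearer after Tmem120a knockdown and 7 after the double knockdown, against 40.2% and 53.9% of genes. Then 1 member lay nearer by 2-fold or more in each knockdown (Srebf1 after Tmem120a knockdown and Klf15 after the double knockdown), against 8.19% and 16.5% of genes.

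LAD length within 1 Mb of the start was higher after the double knockdown than in adipocytes for all 10 members, against 67.6% of genes outside LADs in all 4 lists. In the Tmem120a knockdown it was higher for 5, equal for 2 and lower for 3, against 58.9% higher. The median over members came to 199 kb in preadipocytes, 65.03 kb in adipocytes, 113 kb after Tmem120a knockdown and 212 kb after the double knockdown. For genes outside LADs in all 4 lists it was 228, 132, 222 and 288 kb. With only LADs of at least 30 kb counted, 9 of the 10 members had a higher length after the double knockdown, against 57.6% of these genes, and with LADs of at least 100 kb 3 did, against 29.0%. Within 500 kb of the start, the median share in a LAD was 3.45%, 0%, 0% and 5.70% in the same order, against 1.87%, 0%, 4.45% and 5.50% for genes outside LADs in all 4 lists. No LAD lay in that window for 4, 7, 6 and 2 members, against 32.7%, 40.2%, 23.1% and 20.3% of all genes, those in LADs included.

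**Figure D4:**
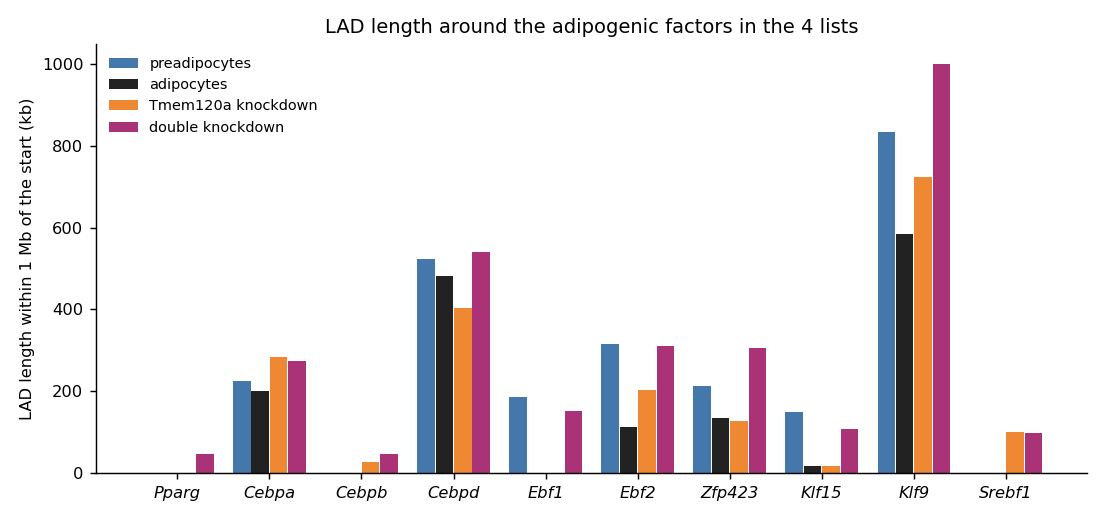
LAD length in kb within 1 Mb on each side of the start of each factor, 1 bar per list. The double knockdown bar is higher than the adipocyte bar at all 10 factors, and Klf9 has the most, from 583 to 999 kb, while Pparg, Cebpb and Srebf1 have none in preadipocytes and adipocytes.

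For each member but Srebf1, the nearest protein-coding gene whose body met a LAD in any list is given. Besides Syn2, Prkdc, 4933402J07Rik, Vmn1r53 and Trpm3, it was Chst8 for Cebpa (307 kb away, 21.4% of its body in a LAD after the double knockdown), Atp9a for Cebpb (944 kb, 22.9% in preadipocytes) and Sox30 for Ebf1 (972 kb, 49.7% in preadipocytes). For Ebf2 it was Dock5 (321 kb, 8.84% after Tmem120a knockdown and 22.8% after the double knockdown). Each of these genes was at 0% in the lists not given. Thus of these nearest genes, Trpm3 alone met a LAD in adipocytes. Farther out, V1ra8 and Adra1a, named above, met the adipocyte LADs nearest Klf15 and Ebf2.

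The surroundings of the members differ in gene density and base content. Within 500 kb of their starts lay 4 (Ebf1 and Klf9) to 20 (Klf15) starts of protein-coding genes, with a median of 13, against 16 for all genes and 19 for genes outside LADs in all 4 lists. The GC content within 50 kb of the start ranged from 41.0% at Pparg to 52.6% at Cebpb, with a median of 47.6% against 44.2% for all genes. GATC sites, which set the resolution of the method, numbered 2.25 per kb at the median, against 2.49 for all genes. Each promoter window had 4 to 10 of them, so each promoter was covered by several fragments. Unsequenced bases within 1 Mb were absent except near Ebf2, where they made up 0.191%.

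RefSeq gave 14 promoters of 300 bases for 8 of the members, each of which matched mm9 once, and none lay in a LAD in any list. Ebf2 and Cebpd have no entry in that table. CACCC was found in 13 of the 14, against 57.5% of all 32851 promoters in the table. AGGTCA was found in 3 (2 of Pparg and 1 of Zfp423), against 16.3%, and CCCNNGGG in 3 (Cebpb, Zfp423 and Srebf1), against 13.7%. TTGCGCAA and TCACNCCAC were found in none, against 0.183% and 1.24%, and GATC in 5, against 48.0%. Pparg, Ebf1, Zfp423 and Srebf1 each have more than 1 of the 14 promoters, and the shares over all promoters were not matched for GC content. The counts were not tested and cannot be read as an excess or a lack of a motif.

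Related regulators were placed in the same way: 24 paralogs of the members, 20 other regulators that promote adipogenesis and 15 that restrain it, 51 genes in all since some are in 2 lists. Of these, 40 lay outside LADs in all 4 lists, against 63.7% of all genes. Of the others, 2 (Klf8 and Klf12) met a LAD in all 4 and 9 in some. By list, 4 of the 51 met a LAD in preadipocytes, 2 in adipocytes, 4 after Tmem120a knockdown and 11 after the double knockdown. Over all genes the shares were 26.2%, 23.3%, 27.5% and 29.5% in the same order, each above the share among the 51. From preadipocytes to adipocytes 2 (Prdm16 and Nfia) lost their overlap and 0 gained one. Over all genes 4.81% lost their overlap and 420 of 22367 gained one. From adipocytes to the Tmem120a knockdown 2 (Nfib and Ncoa2) gained one, against 6.13%. From adipocytes to the double knockdown 9 gained one and 0 lost one, while over all genes 8.36% gained and 470 of 22367 lost one. These 9 are mostly long genes (17.7 to 429 kb), with a median length of 237 kb. The median was 14.8 kb for the 40 that stayed outside, 15.4 kb for all genes and 34.2 kb for the 1869 genes that gained an overlap in that comparison. The part of length in the count was not tested.

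Prdm16, a co-regulator of brown fat identity, was 21.7% in a LAD in preadipocytes, 0% in adipocytes and after Tmem120a knockdown, and 41.7% after the double knockdown. Its promoter lay in a LAD to 100% in preadipocytes and to 0% elsewhere. Nfia, a nuclear factor I gene that acts in brown fat, was likewise at 0% in adipocytes and after Tmem120a knockdown, with 15.2% in preadipocytes and 4.59% after the double knockdown. Its relative Nfib was at 0%, 0%, 4.62% and 9.98%, with the promoter in a LAD after the double knockdown. Ebf4, a paralog of Ebf1 and Ebf2, was at 82.1% after the double knockdown and 0% elsewhere, through a LAD of 78.5 kb. Ppara, the paralog of Pparg that governs fatty acid oxidation, was at 39.3% there and 0% elsewhere.

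Among the coactivators, Ncoa2 was at 23.8% after Tmem120a knockdown and 14.9% after the double knockdown, and Ncoa1 at 8.21% after the double knockdown alone. Zfp521, which opposes Zfp423 and Ebf1 in precursor cells, was at 5.61% there through a LAD of 16.0 kb. Irf4 was at 8.13% there, and its start was inside the LAD, which is 15.8 kb long. Klf8 and Klf12 had 51.3% to 94.9% and 45.4% to 70.2% of their bodies in LADs over the 4 lists, in both cases least after the double knockdown. Their promoters were 100% in a LAD in the other 3 lists and 0% after the double knockdown. The other 13 Krueppel-like paralogs in the list were at 0% in all 4 lists, as Klf9 and Klf15 were.

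**Figure D5:**
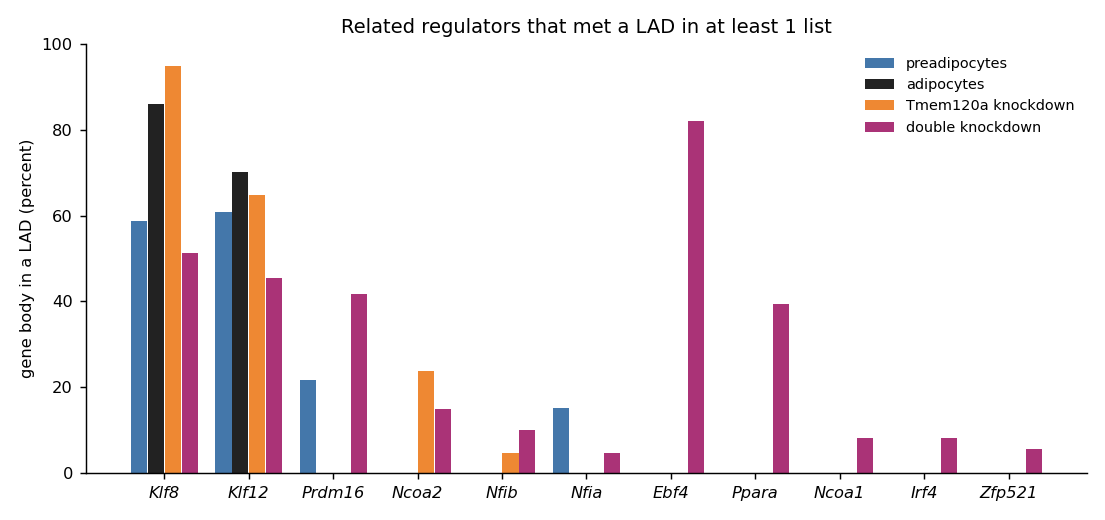
Percent of the gene body in a LAD in each of the 4 lists for the 11 related regulators that met a LAD in at least 1 list. Klf8 and Klf12 have bars in all 4 lists, and Prdm16, Ncoa2, Nfib, Nfia, Ebf4, Ppara, Ncoa1, Irf4 and Zfp521 have a bar after the double knockdown and none in adipocytes.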

How the data were processed

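LaminB1-DamID was read in 8 libraries of 3T3-L1 cells, a Dam and a LaminB1-Dam library in each of 4 conditions. In the study, DpnI-cut, amplified DNA was sequenced and aligned with BWA to mm9 (the submitters' processing notes also name limma; versions are not given in the sources used here), log2 ratios of LaminB1-Dam to Dam were formed per GATC fragment, and the genome was segmented into LADs. The deposited files hold positions of LADs, and of released and recruited regions, as the authors called them; they hold no ratio, count or coverage, so depth is unknown and an absent LAD can be one not called. Lists were assigned to conditions by the abbreviations in their names, read as undifferentiated, differentiated and the knockdowns. Printed starts assume 0-based lists and may be off by 1 base.

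Genes came from GENCODE vM1 (NCBIM37, the build of mm9). Of the LAD edges, 97.3% to 99.1% lay at GATC (within 4 bases). Body overlap was any shared base, the promoter ran from 2 kb before to 0.5 kb after the gene start, distance ran from the gene body to the nearest LAD, and a 2-fold difference was named as such. No test was possible with 1 list per condition. Interval code was tested on simulated data (40 lists, 2000 queries, 0 mismatches). Alternatives kept LADs of at least 30 or 100 kb, closed gaps under 10 or 50 kb, and changed the windows. Named were all 10 members, related regulators in LADs in some lists (and Klf8 and Klf12, in all 4, chosen after their values were seen) and the nearest gene in a LAD (for Srebf1 not reported here). The members and lists were chosen with earlier results of these data known. Python 3.11.15, NumPy 2.4.6 and matplotlib 3.10.9 were used.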

Additional observations from a re-analysis of the deposited data

Results flagged for a closer look

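At Pparg, Cebpd, Zfp423 and Klf15 the knockdowns lay on opposite sides of the adipocyte value in the measures given here. These differences were not tested, each list being a single one. How many of all genes show such opposite values was not counted, so their number among the members cannot be read as a result. Relative to adipocytes, the distance of Pparg to the nearest LAD differed by 3.84 kb in the Tmem120a knockdown (farther) and by -842 kb in the double knockdown (nearer). The share in a LAD within 1 Mb of the start of Cebpd differed by -3.97 and 2.88 percentage points in the same order. For Zfp423 that share differed by -0.457 and 8.56 percentage points, although both knockdowns had a nearer LAD than adipocytes. For Klf15 it differed by -0.0778 and 4.45 percentage points, and within 500 kb of the start by -1.77 and 3.75 percentage points.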

How the results depend on the processing

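No member met a LAD with body or promoter under any alternative run (70 counts and 160 body shares, all at 0). Most of these zeros were fixed in advance. Dropping short LADs, or asking for at least 50% of the body, the transcript span or the start base alone, cannot add an overlap. The counts of differing body state follow from the body counts. Only closing gaps, the wider promoter window and other transcript starts could have added one, and none did. Closing gaps moved none of the 40 distances by more than 1.5 times. Short LADs mattered more: 32 of 40 distances stayed within that range with LADs of at least 30 kb and 21 with LADs of at least 100 kb. At 100 kb the median distance was 1004 kb in the Tmem120a knockdown (473 kb with all LADs) and 839 kb in the double knockdown (290.0 kb), while preadipocytes had 673 kb and adipocytes 1031 kb. The order of the conditions then differs: preadipocytes have the lowest median, and the Tmem120a knockdown lies close to adipocytes. Windows of 100 kb on each side had a median LAD share of 0% in preadipocytes and in the double knockdown, and windows of 1 Mb had 9.96%, 3.25%, 5.66% and 10.6% in the 4 lists.

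The next alternatives were added after seeing the data. At 100 kb, 5 members lay nearer in the Tmem120a knockdown (8 with all LADs), and 1 by 2-fold or more in each knockdown (2 and 6), against 8.19% and 16.5% of genes. LAD length within 1 Mb was higher for 3 members in each knockdown (5 and 10), against 17.7% and 29.0%. The stretch was shorter in the Tmem120a knockdown for 4 (9), against 37.7%. In the double knockdown it was shorter for 9 (10), against 56.9%, a wider gap from the background than with all LADs. At 30 kb, 2 members (Ebf1 and Klf15) were farther by 2-fold or more in adipocytes than in preadipocytes (1), against 20.4% of genes. Over all genes outside LADs, the shares farther in adipocytes, nearer in the Tmem120a knockdown and nearer in the double knockdown were 69.7%, 68.3% and 76.1% at 30 kb, and 64.8%, 40.2% and 53.9% at 100 kb.

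Differences that turned were, for adipocytes minus preadipocytes, -8.58 kb at Cebpa (100 kb) and -31.3 kb at Cebpd (30 kb). For the Tmem120a knockdown minus adipocytes they were 8.02 kb at Cebpb and 49.0 kb at Ebf1 (both settings), 39.2 and 68.6 kb at Ebf2, -2929 and -94.9 kb at Klf15 (30 and 100 kb), and 363 kb at Zfp423 (100 kb). For the double knockdown minus adipocytes they were 9.34 kb at Cebpa, 9.81 kb at Ebf1 and 16.8 kb at Zfp423 (100 kb), and -4335 kb at Klf15 (both settings). These follow from the removal of the shorter LADs that set the distance. No paired analysis was possible because each condition has 1 list. Without ratios or replicates, a short LAD could not be weighed against noise.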
